A study of Drosophila melanogaster with 8 samples.

Results

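The 5 microRNAs described here, mir-1003-3p, mir-1006-3p, mir-1007-3p, mir-1008-3p and mir-1012-3p, are guides made from mirtrons, short introns that fold into hairpins. They were chosen by name, out of 271 hairpin arms in the deposited tables, and all 5 had reads in each of the 8 small RNA libraries. The study sequenced RNA of 18 to 30 nt from S2 cells, a Drosophila cell line with features of blood cells, in 4 genotypes of 2 samples each. Nibbler (Nbr) is an exoribonuclease that trims some microRNAs from the 3' end. The groups were wild type, nbr knock-out, nbr knock-out with nbr wt overexpression, and nbr knock-out with nbr catalytic mutant overexpression, so every group other than wild type carries the knock-out. The sources used here do not give the promoter of the transgenes or say whether the knock-out is 1 clone.

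No genotype could be given to a library. The tables name the libraries by numbers from 81154 to 81161, and 0 of these 8 numbers occur in the sample labels. Each value below therefore belongs to a numbered library, no genotypes were compared and no test between groups was made. The libraries held 17145872 to 32958242 small RNA reads. A guide's abundance is given as RPM, its reads divided by the library's small RNA reads and multiplied by 1000000, and 3 reads, the upper limit behind a count of 0, stood for 0.0910 to 0.175 RPM. Intervals are 95% Wilson intervals. Like the standard errors (SE), they hold only the error of counting, since reads copied by PCR do not each stand for a molecule.

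A canonical microRNA hairpin is cut out of its transcript by Drosha, whereas a mirtron hairpin is released by the spliceosome and debranching and then cut by Dicer. The splice sites thus set both ends of the hairpin: its first bases are the intron's 5' splice site and its last base is the intron's last base. In flies the 3' ends of spliced hairpins are also known targets of Tailor, an enzyme that adds uridines. For a read that starts at a fixed position, the length alone gives the place of its 3' end.

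The hairpins were those of introns in every case. All 5 spanned exactly 1 annotated intron of a protein-coding gene on the same strand (dm6 coordinates, BDGP6 annotation of Ensembl release 115). The mir-1003 hairpin is intron 5 of CG6695, at chr3R:24658605-24658660, plus strand. The mir-1006 hairpin is an intron of VhaSFD, which encodes a subunit of the vacuolar proton pump, at chr2L:16724795-16724858, minus strand. The mir-1007 hairpin is an intron of Abca3, named as an ABC transporter, at chrX:21296385-21296449, minus strand. The mir-1008 hairpin is an intron of CG18004, at chr2R:10885533-10885589, plus strand. Here the annotation also holds an intron that contains the hairpin and is longer by 18 nt. On which side of the hairpin these bases lie was not determined. The mir-1012 hairpin is intron 6 of Lerp, which encodes a receptor for lysosomal enzymes, at chr3R:26861349-26861407, minus strand. Each of these introns lies between coding parts of its gene, except that for mir-1003 this depends on the transcript.

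The deposited tables list the first 8 bases of each arm as DNA. They are shown for 4 guides because they give the seed, bases 2 to 8 (capitals), which sets what a guide pairs with.
mir-1003-3p: tCTCACAT
mir-1006-3p: tAAATTCG
mir-1007-3p: tAAGCTCA
mir-1012-3p: tTAGTCAA
All 4 start with T (U in the RNA), the base that fly Argonaute1 guides most often start with, and no seed is shared between the guides. Bases 2 to 8 of mir-1006-3p also occur in mir-10-3p, a microRNA of the Hox cluster, which had only 1 to 5 reads per library.
The first 8 bases of the opposite arms are shown because they carry the 5' splice site, GT (capitals).
mir-1003-5p: GTgggtat
mir-1006-5p: GTgagttt
mir-1007-5p: GTaagcag
mir-1012-5p: GTgggtag
These arms start at position 1 of the hairpin, so their 5' ends were the first base of the intron.

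Abundance set the guides apart from each other far more than it set the libraries apart. mir-1003-3p was the most abundant, with 482 RPM in the lowest library, a median of 530.2 and 611 in the highest. mir-1008-3p followed with 235, 252 and 319.6, and mir-1006-3p with 208, 226 and 239.5. The ranges of mir-1008-3p and mir-1006-3p overlap, and they stood within 5 RPM of each other in library 81155 (237 and 238) and in library 81159 (235 and 235). mir-1012-3p had 34.4, 53.9 and 73.3 RPM, and mir-1007-3p had 24.1, 25.8 and 31.0. The lowest value of mir-1012-3p thus lay above the highest of mir-1007-3p. Together the 5 guides gave between 1044 RPM in library 81156 and 1163 in library 81160. This was 0.285 to 0.353% of the reads of 262 arms, each counted once at its main start. Of all microRNA reads it was 0.259 to 0.318%.

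**Figure D1:**
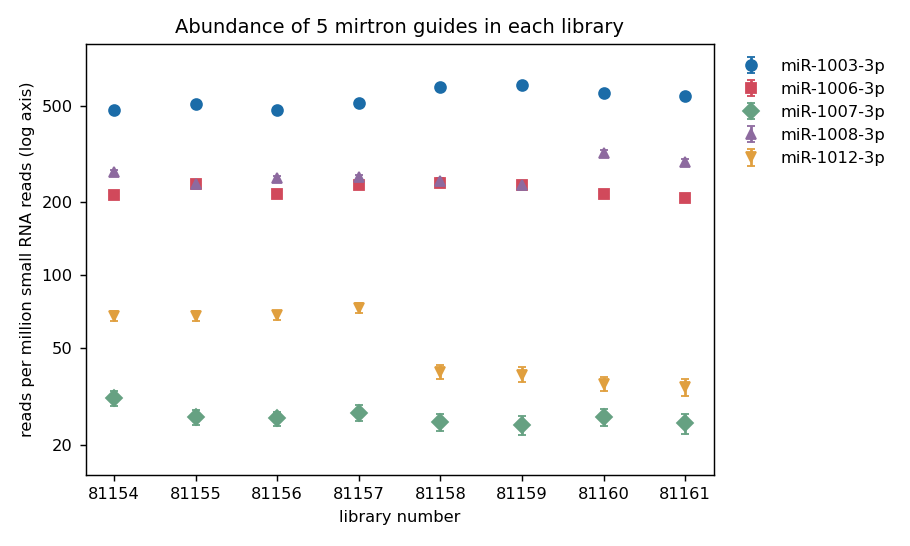
Abundance of the 5 guides (RPM, log axis) in each of the 8 libraries, with 95% counting intervals. mir-1003-3p lies highest in every library, and mir-1012-3p lies at 67.8 to 73.3 RPM in 4 libraries and at 34.4 to 39.9 RPM in the other 4.

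Of the 5 guides, 1 spanned at least 2-fold in abundance between its highest and lowest library, mir-1012-3p, and 30 of 100 arms did so over the whole table (30.0%). These 100 arms averaged 10 RPM or more and were read in all libraries. In order of library number, mir-1012-3p had 68.0, 67.8, 68.4 and 73.3 RPM in libraries 81154 to 81157, then 39.9, 38.9, 35.6 and 34.4 RPM in libraries 81158 to 81161. Its span was 2.13-fold, on 590 to 2255 reads per library, and 1.99-fold without library 81157. The other guides spanned 1.15-fold (mir-1006-3p), 1.27-fold (mir-1003-3p), 1.29-fold (mir-1007-3p) and 1.36-fold (mir-1008-3p), against a median of 1.61-fold over the 100 arms. Among the 100, 97 had a wider span than mir-1006-3p. For mir-1007-3p the high value was 1 library, 81154 with 31.0 RPM, and the span was 1.12-fold without it. mir-1003-3p was highest in libraries 81158 and 81159 (597 and 611 RPM), which also had the highest share of microRNA among small RNA reads (44.3 and 43.6%, against 34.7 to 39.5% in the others). Scaled to microRNA reads its span was 1.21-fold. Those of the other guides grew, to 1.26-fold (mir-1006-3p), 1.43-fold (mir-1007-3p), 1.501-fold (mir-1008-3p) and 2.38-fold (mir-1012-3p). The part of these shares in the spans was not tested.

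The guide took nearly all reads of its hairpin, except at mir-1012. Here the opposite arm, mir-1012-5p, held 36.1, 32.5, 28.5 and 29.9% of the reads of both arms in libraries 81154 to 81157, and 24.2, 23.4, 19.2 and 20.4% in libraries 81158 to 81161. mir-1012-5p itself spanned 4.56-fold, from 8.43 to 38.4 RPM, so the guide exceeded it 1.77-fold at the least and 4.22-fold at the most. Both arms were lower in libraries 81158 to 81161 than in any of the others. At mir-1003 the opposite arm held 0.822 to 1.58% of the reads, at mir-1006 1.08 to 2.14% and at mir-1008 1.00 to 1.88%, with guides 45.7-fold to 121-fold above their opposite arms. mir-1007-5p had only 2 to 7 reads per library, which is too few for a ratio.

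Each guide most often ended exactly at the last base of its intron. For mir-1003-3p, which starts at position 35 of a 56 nt hairpin, that end gives 22 nt. For mir-1006-3p (position 42 of 64), mir-1007-3p (43 of 65) and mir-1012-3p (37 of 59) it gives 23 nt, and for mir-1008-3p (36 of 57) 22 nt. These were the most common lengths of all 5 guides in every library. The share of reads at the intron's last base was highest for mir-1012-3p, with a median of 74.8% (69.3 to 80.1%). It was 57.1% for mir-1006-3p (48.9 to 63.6%), 53.8% for mir-1003-3p (45.1 to 62.9%), 45.5% for mir-1008-3p (40.7 to 49.0%) and 44.7% for mir-1007-3p (42.4 to 47.0%). The ranges of mir-1006-3p and mir-1003-3p overlap, as do those of mir-1008-3p and mir-1007-3p.

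**Figure D2:**
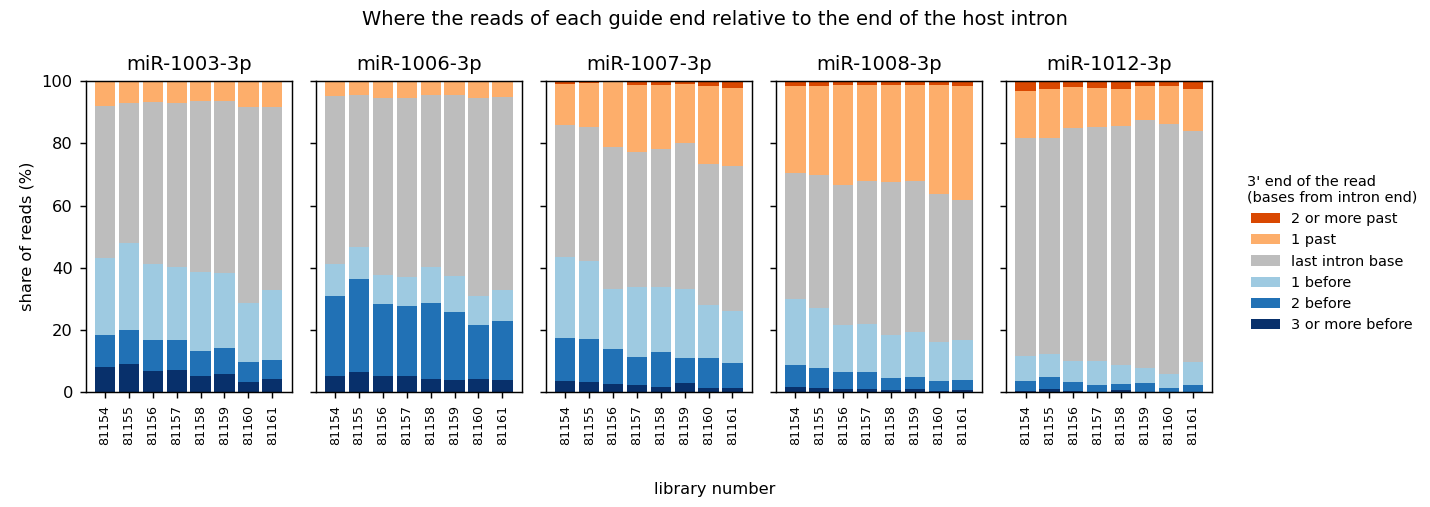
Share of each guide's reads (%) by the place of the 3' end, from 3 or more bases before the intron's last base to 2 or more past it, in each of the 8 libraries. The grey part, reads that end at the last intron base, is the largest part in every bar, and the orange part is widest for mir-1008-3p.

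The guides differed in how many reads ran past the intron. Of the mir-1008-3p reads, 29.4% in the lowest library (95% interval 28.3 to 30.5%, library 81154), 32.4% in the median and 38.1% in the highest (36.8 to 39.4%, library 81161) ended past its last base. For mir-1007-3p these values were 14.1, 21.5 and 27.4%, for mir-1012-3p 12.4, 15.03 and 18.4%, for mir-1003-3p 6.39, 6.99 and 8.28%, and for mir-1006-3p 4.34, 5.03 and 5.53%. The ranges of mir-1007-3p and mir-1012-3p overlap, those of the other neighbours in this order do not. Most of these reads were longer by 1 base. Reads longer by 2 or more made up a median of 2.35% for mir-1012-3p, 1.37% for mir-1008-3p, 1.13% for mir-1007-3p, 0.248% for mir-1003-3p and 0.112% for mir-1006-3p. The deposited values do not give the added base, so whether it matches the next exon base was not tested. For mir-1008-3p, the base past the hairpin could also belong to the longer annotated intron. This limits its comparison with the other guides.

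Reads that stopped short of the intron's end were spread over lengths in unlike ways. The shares of mir-1003-3p fell with distance, with medians of 24.3% of reads ending 1 base short and 8.99% ending 2 bases short. mir-1006-3p instead had a second peak at 21 nt, 2 bases short, with a median of 22.8% (17.4 to 29.8%), while only 10.1% (9.32 to 11.4%) were 22 nt long. In all 8 libraries its 21 nt reads outnumbered its 22 nt reads. For mir-1007-3p 21.5% ended 1 base short and 10.5% 2 bases short, and for mir-1008-3p 14.8 and 4.72%. mir-1012-3p had the lowest share of short reads. A median of 9.89% ended anywhere before the intron's end (5.99 to 12.4%), against 39.5% for mir-1003-3p (28.8 to 47.9%).

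The lengths of 4 of the guides were thus spread more widely within a library than those of the median arm. The most common length held 66.6% of the reads of the median arm among the 100, and 44.7% (mir-1007-3p) to 57.1% (mir-1006-3p) of the reads of these 4. Of the 100 arms, 93 had a higher such share than mir-1007-3p and 89 a higher one than mir-1008-3p. For mir-1012-3p the share was 74.8%, and 38 arms lay above it. By Shannon entropy of the length shares, a measure of spread that is 0 bits when all reads have 1 length, the 5 guides had a median of 1.81 bits and the 100 arms one of 1.37 bits.

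Between libraries the mean length of the guides varied within less than 0.5 nt. Of the 5 guides, 0 had a range (highest minus lowest library) of 0.5 nt or more, against 12 of 100 arms (12.0%). The ranges were 0.425 nt for mir-1007-3p, 0.379 nt for mir-1003-3p, 0.345 nt for mir-1006-3p, 0.278 nt for mir-1008-3p and 0.0640 nt for mir-1012-3p. The median range over the 100 arms was 0.210 nt, and 4 of the 5 guides lay above it. The range of mir-1006-3p was 0.214 nt without library 81155, and that of mir-1003-3p was 0.225 nt with reads of 20 to 26 nt only. mir-1012-3p lay between 23.02 and 23.09 nt, with a counting SE of 0.0144 to 0.0274 nt per library, so its range was of the order of the counting error.

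**Figure D3:**
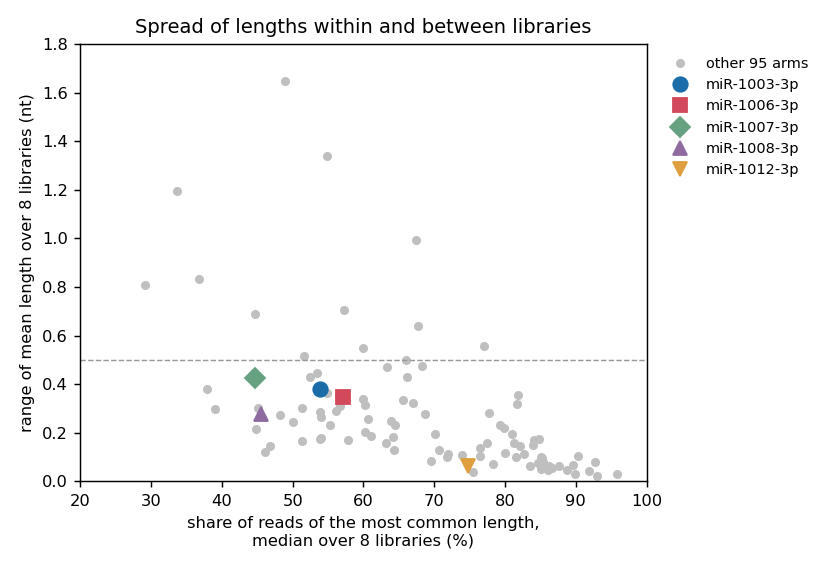
Range of mean length over the 8 libraries (nt) against the share of reads of the most common length (%, median over the 8 libraries) for 100 arms, with the 5 guides marked. All 5 lie below the dashed line at 0.5 nt, and mir-1007-3p and mir-1008-3p lie furthest left among them.

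The same libraries held the shortest and the longest reads for most guides. The reads of mir-1003-3p were on average 21.37, 21.29, 21.40 and 21.41 nt long in libraries 81154 to 81157, and 21.49, 21.47, 21.67 and 21.60 nt long in libraries 81158 to 81161, where the counting SE never exceeded 0.0101 nt. For all 5 guides libraries 81160 and 81161 were the 2 longest. Library 81155 was among the 2 shortest for all 5, and library 81154 for 4 of them. This order was not one of mirtrons alone. Library 81160 was among the 2 longest for 82 of the 100 arms and 81161 for 58, and library 81155 was among the 2 shortest for 61 and 81154 for 40. In the median of the 100 arms, library 81160 deviated from an arm's median length by 0.0780 nt and library 81155 by -0.0890 nt. For the guides these medians were 0.137 and -0.156 nt. The part of this common shift in the guides' ranges was not tested.

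**Figure D4:**
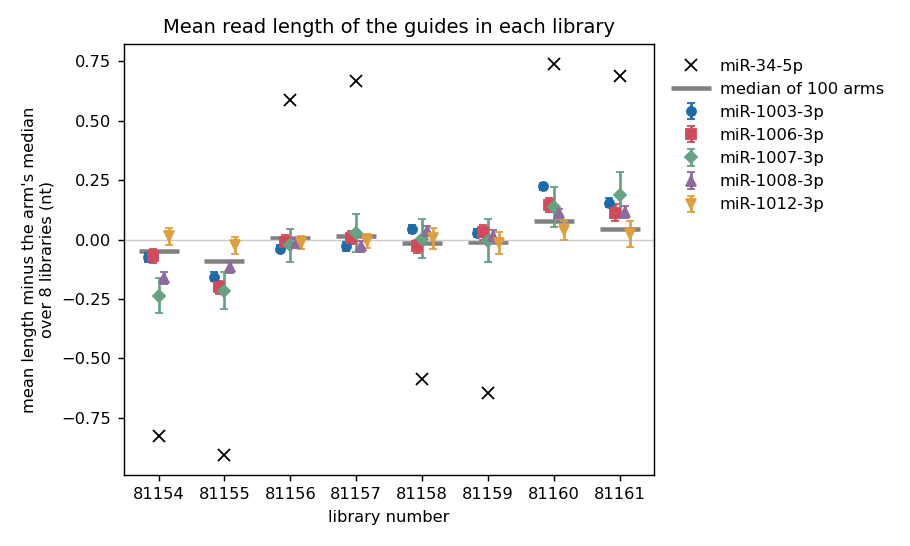
Mean read length of the 5 guides in each library, as the difference from each arm's own median over the 8 libraries (nt), with 95% counting intervals. Crosses give mir-34-5p and grey bars the median of 100 arms. The guides stay within 0.25 nt of their median, while mir-34-5p moves by up to 1.65 nt between libraries.

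From library to library the guides moved less in length than mir-34-5p, a well-known Nibbler substrate. Part of its order was seen in 4 of them, and also in the median of the 100 arms. In order of library number, mir-34-5p had mean lengths of 22.33, 22.24, 23.74 and 23.82 nt in 81154 to 81157, and 22.57, 22.51, 23.89 and 23.84 nt in 81158 to 81161. mir-1007-3p had 22.50, 22.52, 22.71 and 22.77 nt, then 22.74, 22.73, 22.87 and 22.93 nt. mir-1008-3p had 21.90, 21.95, 22.04 and 22.03 nt, then 22.10, 22.08, 22.17 and 22.18 nt. Both were thus longer in 81156 and 81157 than in 81154 and 81155, and longer in 81160 and 81161 than in 81158 and 81159, as mir-34-5p was. The values of mir-1003-3p, given above, had this order too, as did those of mir-1006-3p, at 22.25, 22.12, 22.32 and 22.33 nt, then 22.30, 22.36, 22.47 and 22.44 nt. mir-1012-3p, at 23.06, 23.02, 23.03 and 23.04 nt, then 23.05, 23.03, 23.09 and 23.07 nt, had it in the latter 4 libraries only. Where mir-34-5p was shorter again, in 81158 and 81159 against 81156 and 81157, mir-1003-3p and mir-1008-3p were longer, and the values of the other 3 guides overlapped. The median deviation of the 100 arms also had the order of the first comparisons, at -0.0474, -0.0890, 0.00623 and 0.0145 nt, then -0.0164, -0.0103, 0.0780 and 0.0445 nt. How many of the 100 arms had this order was not counted, so it cannot be called a trait of the guides. The full range over the 8 libraries was 1.65 nt for mir-34-5p and 1.34 nt for mir-305-5p, another known substrate.

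The share of reads past the intron and the share short of it did not vary together in the same way in all guides. In mir-1007-3p the reads past the end went from 14.1% in library 81154 to 27.4% in 81161, while those short of it went from 43.5 to 26.01%. mir-1008-3p had the same order, with 29.4 and 38.1% past and 29.9 and 17.0% short in these libraries. In mir-1003-3p the reads past the end differed little in these libraries (7.88 and 8.22%), and those short of it went from 43.3 to 33.0%. mir-1006-3p was like it, with 4.84 and 5.22% past and 41.2 and 33.0% short. This contrast depends partly on the libraries compared. In libraries 81155 and 81160, mir-1003-3p had 7.09 and 8.28% past the end and 47.9 and 28.8% short of it. There mir-1006-3p had 4.34 and 5.37% past and 46.7 and 31.0% short. In mir-1012-3p both shares were lower in 81161 (16.1 and 9.66%) than in 81154 (18.4 and 11.6%), with overlapping intervals. Library 81160 had still lower shares, 13.9% past (95% interval 11.6 to 16.5%) and 5.99% short (4.53 to 7.87%). Neither interval overlaps that of library 81154, 16.6 to 20.4% past and 10.1 to 13.2% short.

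The other spliced hairpins with reads had far fewer reads. Over all libraries, 4 of 5 of their 3' arms also ended most often at the intron's end. The tables hold 7 further arms of spliced hairpins, and all 12 spliced hairpins in the tables equal an annotated intron. Of these 7 arms, 5 start beyond the middle of their hairpin, although 4 of them, mir-1005-5p, mir-1009-5p, mir-1013-5p and mir-1015-5p, are named as 5p arms in the tables. Over all libraries the most common length ended at the intron's last base in 4 of these 5. Among the 4, mir-1010-3p and mir-1015-5p had only 243 and 94 reads in all. In libraries 81157 and 81160 mir-1010-3p was most often 25 nt long, 1 base past the intron's end. mir-1005-5p, from an intron of Atet, had a median of 58.8% of reads there and 30.5% past it (75 to 179 reads per library). mir-1009-5p, from an intron of CG3860, had 52.4% there and only 0.610% past it (136 to 225 reads). mir-1013-5p, from an intron of wts, a kinase of the Hippo pathway, was the exception, and it differed between libraries (79 to 172 reads). The share at the intron's end was 7.77, 6.67, 40.4 and 46.8% in libraries 81154 to 81157, and 20.9, 16.3, 42.3 and 45.6% in libraries 81158 to 81161. Its most common length was 23 nt, the intron's end, in 81156, 81157, 81160 and 81161, 21 nt in 81154 and 81155, and 20 nt in 81158 and 81159. Its mean length ranged by 1.68 nt, from 20.68 to 22.36 nt, and the counting SE reached 0.101 nt. mir-1010-3p and mir-1015-5p had as few as 3 and 4 reads in a library, and their shares are not given.

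Over the 8 libraries, the abundance of mir-1012-3p was most like that of its own opposite arm mir-1012-5p (Pearson r = 0.980 of log2 RPM over 8 libraries, out of 99 other arms) and of mir-2b-2-5p (r = 0.964). For mir-1003-3p the most alike were mir-14-3p (r = 0.950) and mir-2279-5p (r = 0.935), for mir-1007-3p mir-306-3p (r = 0.877) and mir-988-5p (r = 0.849). For mir-1006-3p they were mir-6-3-3p (r = 0.817) and mir-2535b-5p (r = 0.758), and for mir-1008-3p mir-995-5p (r = 0.739) and mir-995-3p (r = 0.725). These values describe 8 libraries that share a depth and a scaling for all arms, and each is the highest of 99.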

How the data were processed

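Small RNA of 18 to 30 nt was sequenced with adapters that end in 4 random bases, per the labels' protocols. Per the submitters' processing notes, Bowtie 1.2.2, cutadapt 1.7.1, Picard and the dm6 build were used, and the sources used here give no mismatch or multi-mapping settings. The deposited signal is, per the file headers, a value for each arm, start position, read length and read class. Multiplied by the library's deposited total of small RNA reads, and divided by 1000000, 100% of lines came out as whole reads to within 0.001, so it is RPM. The totals are the other deposited values, and the deposited score column is the authors' mean RPM over libraries. No libraries were duplicates (chi-square per degree of freedom 41.8 or more over 28 pairs).

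Each mature arm was taken once, at its main start (262 arms). The 100 that averaged 10 RPM or more and were read in all libraries formed the background. The listed letters begin at the read's first base: overlapping entries of 1 hairpin agree in 16 of 16 pairs. The 3' end was the start plus the length, set against annotated introns. The length calculation was tested on simulated reads of 100 arms: a 1 nt shift in 1 library was found in 20 of 20 shifted arms and in 0 of 80 others. Apart from that shift, the simulated libraries differed by counting error only. The result thus checks the calculation, and not smaller shifts or shifts shared by many arms. Of 177 hairpin gene IDs, 174 matched the annotation. Members and lists, including the spliced hairpins mir-1003 to mir-1017, were chosen with earlier results of these data known. The named arms are the 5 guides, their opposite arms, other spliced hairpins, 2 known substrates and the 2 arms most like each guide. The planned tests between genotypes were not run. The measure of ends against introns was added after the lengths were seen. The software was scipy 1.17.1, numpy 2.4.6, matplotlib 3.10.9 and pandas 2.3.3 under Python 3.11.15.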

Additional observations from a re-analysis of the deposited data

Results flagged for a closer look

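Reads of the class that the authors' tables mark as tc, which may stand for reads with T-to-C mismatches and is not defined in the labels, were not set apart above. In 4 of the guides this class exceeded the 3 reads that a count of 0 allows. This limit depends on an arm's depth, and the share of the 100 arms past it was not counted. Over the 8 libraries it held 257 reads of mir-1003-3p (0.253%, 95% interval 0.224 to 0.286%), 151 of mir-1008-3p (0.304%, 0.259 to 0.356%), 54 of mir-1006-3p (0.126%, 0.0963 to 0.164%) and 6 of mir-1012-3p (0.0568%, 0.0260 to 0.124%). mir-1007-3p had 3 such reads. The median of the 100 arms was 0.0905%, and mir-1012-3p and mir-1007-3p (0.0600%) lay below it. The origin of these reads was not tested.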

How the results depend on the processing

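No paired analysis was possible because no library number could be tied to a replicate. The planned genotype tests, edgeR for abundance and limma for mean length, and their left-out replicates were not run for lack of genotypes. With reads of 20 to 26 nt only, the median length range of the guides fell from 0.345 to 0.248 nt and that of mir-1003-3p from 0.379 to 0.225 nt, because its 18 and 19 nt reads were left out. With 1 library left out at a time, the median range was 0.278 to 0.345 nt, the lowest without library 81155, where mir-1006-3p ranged by 0.214 nt. The number of guides at 0.5 nt or more was 0 under all settings tried. Of all arms, 12 of 100 reached 0.5 nt, 26 of 168 at a minimum of 1 RPM and 99 of 262 with no minimum. Having no minimum adds arms with few reads. At a minimum of 100 RPM it was 8 of 68 arms, with 3 of the 5 guides left. When single libraries were dropped, 10 to 12 arms reached 0.5 nt. The number of guides at 2-fold or more was 1, and 0 to 1 with 1 library left out (0 without library 81157). The median span was 1.27 to 1.29-fold in the same way. All 5 guides had their most common length at the intron's end under each setting tried, a result added after seeing the data. Depth limits mir-1007-3p most, at 419 to 845 reads per library.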

Other observations

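The abundance of mir-1012-3p fell into separate sets of values, 67.8 to 73.3 RPM in libraries 81154 to 81157 and 34.4 to 39.9 RPM in libraries 81158 to 81161, with none between. Its opposite arm mir-1012-5p did so in the same libraries, at 27.2 to 38.4 RPM (38.4, 32.6, 27.2 and 31.3 in order of library number) and at 8.43 to 12.7 RPM (12.7, 11.9, 8.43 and 8.81). The mean length of mir-1012-3p did not follow, with 23.06, 23.02, 23.03 and 23.04 nt in the former libraries and 23.05, 23.03, 23.09 and 23.07 nt in the latter. The values of mir-34-5p also fell into separate sets by length, but other libraries held them: 22.33, 22.24, 22.57 and 22.51 nt in 81154, 81155, 81158 and 81159, and 23.74, 23.82, 23.89 and 23.84 nt in 81156, 81157, 81160 and 81161. mir-1013-5p, from a spliced hairpin, had separate values in the same libraries, with 20.86, 20.68, 21.17 and 20.89 nt in the former and 22.10, 22.35, 22.36 and 22.27 nt in the latter.

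Of the reads of mir-1014-5p, from an intron of salt, 139 of 153 (90.8%) were in the class marked tc. mir-1006-5p was the longest opposite arm, with 26 nt as its most common length (50.4% of 625 reads), against 21 to 23 nt for the other 4.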
